A study of Mus musculus with 4 samples.

Results

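The mitochondrial ribosomal protein genes were taken as the Ensembl genes of the deposited count table whose mouse symbol is Mrpl or Mrps followed by a number and at most 1 letter, whose estimated count was above 5 in 2 or more of the 4 libraries. The rule gave 77 genes out of 43496 Ensembl genes in the table, of which 17078 passed its count part. All 77 genes of this name pattern passed, and none lay near the limit: judged by the second-highest of its 4 counts, the lowest was Mrpl53 at 125, followed by Mrps36 at 191 and Mrpl55 at 315. By protein, 26 belong to the small subunit and 50 to the large subunit, including Mrps18a and Mrps30, whose proteins sit in the large subunit despite their names. Mrps36 was kept but placed in neither, because its protein is now known as a component of the 2-oxoglutarate dehydrogenase complex. The genes lie on 17 chromosomes. Mrpl33 was not analysed here.

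The cells were E14, a mouse embryonic stem cell line labelled wild type, strain 12910la, that was grown on gelatin with serum and LIF. One group received an shRNA against MERVL, an endogenous retrovirus that the labels call MuERVL, and the other a random shRNA, both from pSuper puro at 1000 ng of plasmid, each with 2 RNA-seq libraries. Puromycin at 1 µg/ml followed 24 h after transfection and was kept for 4 days in both groups. Nothing in the labels says that the libraries of a group were separate cultures, and the p-values given here therefore reflect the variation among these libraries alone, part or all of which may be technical.

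Mitochondria carry their own ribosomes, which translate the few proteins encoded in mitochondrial DNA, all of them hydrophobic subunits of the respiratory chain and ATP synthase. The RNAs of this ribosome are made inside the organelle, whereas every one of its proteins is encoded in the nucleus, made in the cytosol and imported. Some of these proteins have counterparts in bacterial ribosomes and others were gained in the mitochondrial lineage. Embryonic stem cells are known for an immature mitochondrial network and a high glycolytic flux.

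The control libraries differed more from each other than the knockdown libraries did. Totals were 11628887 to 16067854 estimated counts, and the Pearson correlation across genes of log2 CPM (counts scaled to equal library size) was 0.963 within the random shRNA pair and 0.989 within the MERVL shRNA pair. The MERVL-derived repeat copies, 2277 in the table, summed to 4662 CPM in random shRNA library 1 but to 1434 CPM in library 2, against 1163 and 574 CPM with the MERVL shRNA. Which of these copies the shRNA matches was not examined. The knockdown libraries were thus the lowest, but random shRNA library 2 was closer to MERVL shRNA library 1 than to its own partner. All 8 embryonic stem cell markers were measured and summed to 6661, 6592, 7561 and 8189 CPM in random shRNA libraries 1 and 2 and MERVL shRNA libraries 1 and 2. Their log2 fold changes were all above 0, with a median of 0.22, the groups did not overlap in 7 of the 8 (44.8% of all genes), and edgeR called 0, with 1 at an unadjusted p under 0.05. Of 9 feeder or fibroblast markers 4 (Col3a1, Dcn, Lum and Postn) were at 0 in every library and the summed level of the 4 tested was 35.0, 44.4, 21.3 and 17.7 CPM. Thy1 was at 23.1, 28.8, 8.67 and 6.88 CPM, most of the sum with random shRNA only. The other 3 summed to 11.9, 15.6, 12.6 and 10.8 CPM. Of these, Col1a1 was at 1.98, 1.26, 0.629 and 0.851 CPM and Pdgfra at 4.53, 3.35, 2.83 and 2.34 CPM. In Thy1, Col1a1 and Pdgfra the MERVL shRNA pair thus lay wholly below the random shRNA pair. Pdgfrb, at 5.42, 11.0, 9.18 and 7.59 CPM, had overlapping groups. Of 10 markers of differentiated lineages 6 were tested, with sums of 30.1, 41.2, 25.1 and 25.5 CPM, and Neurog2 was at 0. The 6 tested had a median log2 fold change of -0.32, with 5 below 0 and 1 above, and edgeR called 0. In 2 of them, Eomes and Krt18, both MERVL shRNA libraries lay below both random shRNA libraries (background 21.9%), and in 4 the groups overlapped. Whether these marker differences have a part in the values below was not tested.

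The stretches upstream of 6 members are shown because they belong to 3 of the 4 members with the lowest p-values (Mrpl30, Mrps9 and Mrpl34; Mrps31, the third by p, is not shown), the member with the highest level per length (Mrpl52), a match to the NRF1 motif (Mrpl9) and the start region that Mrps11 shares with another member, Mrpl46. They come from RefSeq promoters on GRCm38.p6, are written 5′ to 3′ on the strand of the gene, and end at the base before its RefSeq start. Capitals mark matches on either strand to the ETS motif CCGGAAG, the SP motif GGGCGG, the YY1 motif AAGATGGCG or the NRF1 palindrome, whose letters are the capitals of the Mrpl9 stretch. The positions are chr1:37890412-37890476 (+) for Mrpl30, chr1:42851083-42851232 (+) for Mrps9, chr8:71464776-71464925 (+) for Mrpl34, chr14:54426759-54426908 (+) for Mrpl52, chr3:94443186-94443335 (+) for Mrpl9 and chr7:78783090-78783130 (+) for Mrps11.
Mrpl30: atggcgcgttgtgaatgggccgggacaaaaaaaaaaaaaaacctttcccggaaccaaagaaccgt
Mrps9: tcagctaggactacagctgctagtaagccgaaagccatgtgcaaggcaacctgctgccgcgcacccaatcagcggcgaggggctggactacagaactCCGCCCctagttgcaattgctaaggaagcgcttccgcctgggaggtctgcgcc
Mrpl34: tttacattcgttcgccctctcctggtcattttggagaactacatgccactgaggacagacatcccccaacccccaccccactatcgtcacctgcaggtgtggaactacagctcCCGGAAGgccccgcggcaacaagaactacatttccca
Mrpl52: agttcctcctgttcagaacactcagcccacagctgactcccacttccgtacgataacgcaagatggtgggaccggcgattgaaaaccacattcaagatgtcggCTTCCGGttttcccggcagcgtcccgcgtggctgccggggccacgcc
Mrpl9: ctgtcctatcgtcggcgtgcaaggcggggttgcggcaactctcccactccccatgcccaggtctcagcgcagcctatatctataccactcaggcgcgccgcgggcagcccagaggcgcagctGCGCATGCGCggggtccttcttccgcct
Mrps11: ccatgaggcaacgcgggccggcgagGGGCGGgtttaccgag
The 65 bases shown for Mrpl30 are all that separates its RefSeq start from that of Mitd1 on the other strand, and they hold none of the motifs. Likewise, the 41 bases shown for Mrps11 are all that separates its RefSeq start from that of Mrpl46 on the other strand, and they hold 1 SP match.

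RefSeq promoters, each reaching from 250 bases before to 50 bases after the start, were found for 68 of the 77 members. The ETS letters, to which GABPA (NRF2) and other ETS factors can bind, were in 24 member promoters (35.3%), against 17.9% of 10501 promoters of tested genes and 9.12% of all 27025 promoters. YY1 letters were in 8 members (11.8%), against 3.14% of tested genes and 1.49% of all promoters. The exact NRF1 palindrome was in 3 members, Mrpl9, Mrpl32 and Mrpl39 (4.41%), against 2.06% of tested genes and 0.977% of all. SP letters were in 34 member promoters (50%), against 65.0% of tested genes and 35.9% of all, and TATAAA was in 4 members (5.88%), against 6.72% of tested genes and 14.2% of all. The ETS and YY1 letters can overlap by their shared AAG, and a match describes the sequence only. The median log2 fold change, MERVL shRNA minus random shRNA, was 0.08 in members with the ETS letters and 0.08 in those without, and 0.06 and 0.08 with and without the YY1 letters.

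The summed level of the mitochondrial ribosomal protein genes differed little between the libraries. It was 4625 and 4638 CPM in random shRNA libraries 1 and 2 and 4628 and 4911 CPM in MERVL shRNA libraries 1 and 2. Library 2 of the MERVL shRNA group was above the other 3: as a percent of the random shRNA mean, it was at 106%, where the others were at 99.9%, 100.1% and 99.9%. The mean was 4631 ± 9.45 CPM for the random shRNA and 4770 ± 200.2 CPM for the MERVL shRNA (SD, n = 2 each). The log2 ratio of the means was 0.04, and it became -0.02 when libraries were scaled by their totals alone. No test was made on the sum, since an exact permutation of 2 against 2 libraries cannot go below a p of 0.333. In bulk RNA, fewer cells of a type and less RNA per cell cannot be told apart.

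Both subunits kept to the same narrow range. Small subunit genes summed to 1429 and 1463 CPM with random shRNA and to 1450 and 1534 CPM with MERVL shRNA. Large subunit genes summed to 3184 and 3161 CPM with random shRNA and to 3165 and 3363 CPM with MERVL shRNA. In both TMM-scaled sums MERVL shRNA library 2 was the highest, and MERVL shRNA library 1 lay between the random shRNA libraries. This order depends on the scaling. By share of all estimated counts, MERVL shRNA library 1 was the lowest for both subunits. For the small subunit, random shRNA library 2 was then the highest, at 0.150% against 0.148% in MERVL shRNA library 2. As shares of all estimated counts, the 77 genes took 0.468% in random shRNA library 1 (0.464% to 0.471%), 0.476% in library 2 (0.472% to 0.480%), 0.458% in MERVL shRNA library 1 (0.455% to 0.462%) and 0.475% in library 2 (0.472% to 0.479%), where the ranges are 95% Wilson intervals that cover counting error only.

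Among the nuclear gene sets read for comparison, those of the cytosolic ribosome and the respiratory chain varied more. Cytosolic ribosomal proteins, 82 genes, summed to 87774 and 114369 CPM with random shRNA and to 113894 and 127090 CPM with the MERVL shRNA, so the random shRNA pair alone differed by 1.30-fold. Nuclear genes of the respiratory chain were taken by symbol prefix, which also takes in ATP synthase genes and Ndufaf assembly factors. The 91 tested summed to 12556, 13980, 14134 and 15520 CPM in the same order, with 1.11-fold between the random shRNA libraries. The mitochondrial ribosomal protein sum differed by 1.00-fold within that pair and by 1.06-fold between its highest and lowest library, against 1.45-fold for the cytosolic set and 1.24-fold for the respiratory chain set. A narrow range was not particular to the members. The 19 genes for mitochondrial transcription and RNA processing summed to 1068, 1040, 1081 and 1079 CPM in the same order. Mitochondrial translation factors (15 genes) summed to 735, 677, 721 and 719 CPM, and the 17 mitochondrial aminoacyl-tRNA synthetases to 769, 858, 979 and 917 CPM. These differences between gene groups were not tested.

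**Figure D1:**
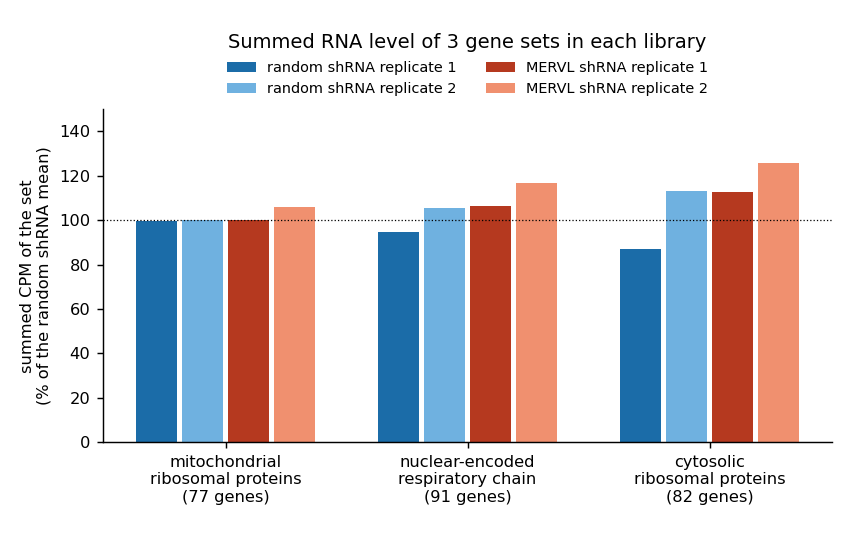
Summed CPM of each gene set in each of the 4 libraries, as a percent of the random shRNA mean of that set, for mitochondrial ribosomal protein genes, cytosolic ribosomal protein genes and nuclear respiratory chain genes; each bar is 1 library and the dotted line marks 100%. The mitochondrial ribosomal protein bars lie between 99.9% and 106%, and the cytosolic ones between 86.8% and 126%.

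Gene by gene, none of the 77 members passed the test between the groups. The typical difference was small: the median log2 fold change was 0.07, against 0.00 over 15735 tested Ensembl genes, with 50 members above 0 and 27 below and a range of -0.94 to 0.61. In 61 of the 77 (79.2%) the difference was under 1.2-fold, against 57.0% of all tested genes. This background was not matched for level. The median level was 40.0 CPM per kb in members and 7.48 in tested protein-coding genes, and whether level bears on this share was not tested. With edgeR's quasi-likelihood test and Benjamini-Hochberg adjustment over 16353 features, 0 members were past an adjusted p of 0.05, where 1 feature in all (0.00612%) was, and the smallest adjusted p of a member was 0.283. At an unadjusted p under 0.05 there were 9 members, 4 higher and 5 lower with MERVL shRNA, where 11.2% of all genes reached that level. DESeq2 called 1 member, Mrpl30 (background 0.804%), and limma-voom called 0 (background 0%), with 9 members at an unadjusted p under 0.05. In edgeR without a filter on low counts 3 members were called, Mrpl30, Mrpl41 and Mrps9 (background 4.75%), and with the replicate number as a block 1 was, Mrpl30 (background 4.51%). The backgrounds of DESeq2 and of edgeR without a filter are shares of 27235 features, which include features with low counts that the main test left out. The deposited normalized scores, in which the median absolute log2 gap of the random shRNA pair was 0.02 against 0.23 in the counts, gave 22 members with limma (background 27.6%).

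Both MERVL shRNA libraries lay above both random shRNA libraries in 27 members (background 23%) and below both in 14 (background 21.9%), so that the groups did not overlap in 41 of 77 (53.2%, background 44.8%) and overlapped in 36. Among the 26 small subunit genes the median log2 fold change was 0.07, with 7 genes wholly higher and 5 wholly lower. The 50 large subunit genes had the same rounded median of 0.07, with 20 wholly higher and 9 wholly lower. Genes whose protein has a bacterial counterpart (43) had a median of 0.07 and those without (33) a median of 0.09. Of the Mrps18 paralogs, all related to bacterial S18, this split counted Mrps18c as having a counterpart and Mrps18a and Mrps18b as having none.

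The number of calls changed with the random shRNA libraries kept in the fit. Without random shRNA library 1, edgeR called 8 members, 4 in each direction (background 14%), and without random shRNA library 2 it called 26, of which 16 were higher and 10 lower (background 32.3%). In both fits the single remaining library is assumed to vary as the other group does. Leaving out either MERVL shRNA library gave 0 member calls, with 3 and 1 members at an unadjusted p under 0.05 without libraries 1 and 2 and backgrounds of 0.0116% and 0.0115%.

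Among small subunit genes, Mrps9, the counterpart of bacterial S9, was at 71.3 and 85.7 CPM with random shRNA and at 53.3 and 47.4 CPM with MERVL shRNA. Both MERVL shRNA libraries were below both random shRNA libraries, and the log2 fold change was -0.64 ± 0.16 (SE), with an edgeR adjusted p of 0.329. The gene lies at chr1:42851233-42905683 on the plus strand of GRCm38, and its exons overlap no other annotated gene. Mrps31, a small subunit protein without a bacterial counterpart, stood at 45.9 and 57.8 CPM with random shRNA and at 74.8 and 72.4 CPM with MERVL shRNA. Here the MERVL shRNA libraries were the higher ones, by 0.51 ± 0.16 on the log2 scale (edgeR adjusted p 0.329). Mrps16, the counterpart of bacterial S16, was at 42.7 and 51.6 CPM with random shRNA and at 58.8 and 66.3 CPM with MERVL shRNA. Its groups did not overlap either, and its log2 fold change of 0.41 ± 0.16 had an edgeR adjusted p of 0.348.

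Among large subunit genes, Mrpl30, the counterpart of bacterial L30, was at 52.7 and 63.6 CPM in the random shRNA libraries and at 31.8 and 28.5 CPM in the MERVL shRNA libraries. The highest MERVL shRNA value was below the lowest random shRNA value by more than the gap within either pair. Group means were 58.1 ± 7.68 and 30.2 ± 2.32 CPM (SD, n = 2), 1.93-fold apart, and the log2 fold change of -0.94 ± 0.16 was the largest of the 77 but did not pass the threshold (edgeR adjusted p 0.283). Mrpl30 lies at chr1:37890477-37898535 on the plus strand, with no exon shared with another gene, and its counts were 825.5 and 757.8 against 506.5 and 402. Over its alternatives the log2 fold change stayed between -1.07 and -0.79, while the adjusted p ran from 5.07e-15 (edgeR without random shRNA library 1) to 0.9999 (edgeR without MERVL shRNA library 2). DESeq2 gave an adjusted p of 0.00755, edgeR with all features kept gave 0.000106, and limma-voom gave 0.308.

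Mrpl30 and Mrps9 are both on chromosome 1, and the genes around each were read for comparison. Within 1000 kb of Mrpl30 there were 16 other tested genes, with a median log2 fold change of 0.17 and 5 below 0. Within 1000 kb of Mrps9 there were 6, with a median of -0.17 and 4 below 0. Each window held 1 gene at an unadjusted p under 0.05.

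A second set of large subunit genes was lower with MERVL shRNA in both libraries. Mrpl34, the counterpart of bacterial L34, stood at 95.7 and 90.9 CPM with random shRNA and at 68.9 and 72.8 CPM with MERVL shRNA (log2 fold change -0.40 ± 0.13). Mrpl13, counterpart of bacterial L13, stood at 59.3 and 55.4 CPM and at 44.3 and 43.6 CPM (-0.39 ± 0.13). In both genes the libraries of a pair were close and the pairs were apart. Mrpl43, a protein without a bacterial counterpart, was at 79.0 and 64.7 CPM with random shRNA and at 50.5 and 53.8 CPM with MERVL shRNA (-0.46 ± 0.15). Mrpl28, counterpart of bacterial L28, was at 96.5 and 88.2 CPM with random shRNA and at 75.4 and 79.0 CPM with MERVL shRNA (-0.26 ± 0.13). Adjusted p-values in the edgeR test were 0.329 for Mrpl34 and Mrpl43, 0.331 for Mrpl13 and 0.456 for Mrpl28.

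Other large subunit genes were higher with MERVL shRNA in both libraries. Mrpl41, a mitochondria-specific protein, was at 18.3 and 26.6 CPM with random shRNA and at 32.6 and 35.8 CPM with MERVL shRNA, and its log2 fold change of 0.61 ± 0.21 was the highest of the 77. Its random shRNA pair differed almost as much as its groups. Mrpl39 was at 80.0 and 79.7 CPM with random shRNA and at 98.6 and 99.8 CPM with MERVL shRNA (0.31 ± 0.13). Mrpl50 was at 76.8 and 78.2 CPM with random shRNA and at 98.1 and 92.7 CPM with MERVL shRNA (0.30 ± 0.13). Both are mitochondria-specific proteins, and in both the random shRNA libraries were close to each other. Mrpl35, counterpart of bacterial L35, was at 53.9 and 67.8 CPM with random shRNA and at 74.1 and 79.9 CPM with MERVL shRNA (0.34 ± 0.16). The edgeR adjusted p-values were 0.332 for Mrpl41, 0.362 for Mrpl39, 0.378 for Mrpl50 and 0.414 for Mrpl35.

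**Figure D2:**
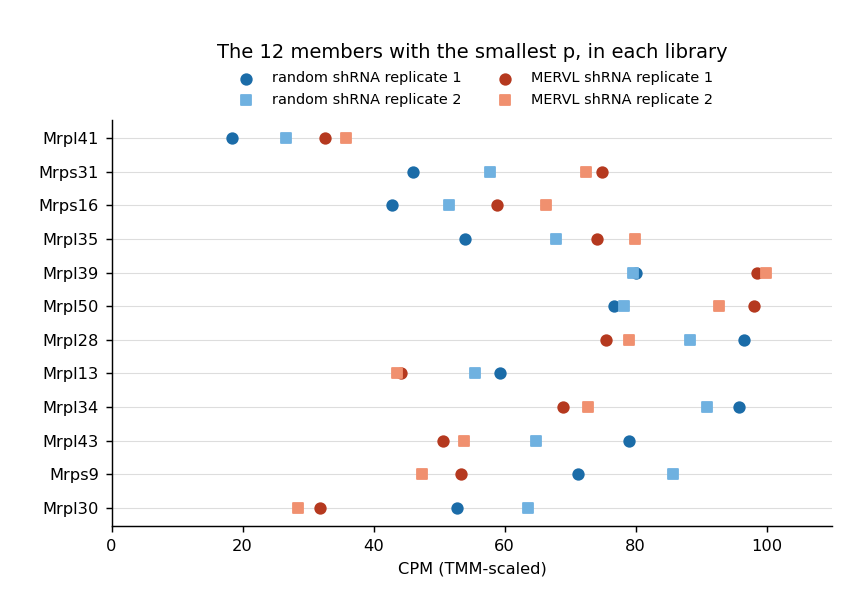
CPM in each of the 4 libraries for the 12 members with the smallest edgeR p-values; each point is 1 library. These members were picked by p from the same libraries, a choice that favours groups lying apart. In all 12 the groups do not overlap (53.2% of the members, 44.8% of all genes). Mrpl30, at 52.7 and 63.6 CPM against 31.8 and 28.5 CPM, shows the widest separation on the log2 scale.

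Some members with well-known functions were read whatever their p. Mrpl12, the stalk protein that contacts translation factors, was at 106.7 and 94.8 CPM with random shRNA and at 105.3 and 138.5 CPM with MERVL shRNA (log2 fold change 0.27 ± 0.18, edgeR adjusted p 0.561), where library 2 of the MERVL shRNA group was the highest. Mrps12, the counterpart of the bacterial S12 protein of the decoding centre, was at 52.8 and 51.2 CPM with random shRNA and at 48.8 and 46.5 CPM with MERVL shRNA (log2 fold change -0.13 ± 0.13, edgeR adjusted p 0.738). Mrpl36, the counterpart of bacterial L36, was at 55.2 and 50.8 CPM with random shRNA and at 51.5 and 59.0 CPM with MERVL shRNA. In Mrpl12 and Mrpl36 the groups overlapped, and in Mrps12 they did not.

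The Mrps18 paralogs, which encode alternative relatives of bacterial S18 placed at different sites of the ribosome, were not alike in their libraries. Mrps18a was at 32.6 and 29.9 CPM with random shRNA and at 28.5 and 31.8 CPM with MERVL shRNA. Mrps18b was at 69.5 and 53.3 CPM with random shRNA and at 65.6 and 68.4 CPM with MERVL shRNA. Mrps18c was at 18.2 and 22.1 CPM with random shRNA and at 22.5 and 25.6 CPM with MERVL shRNA. Groups overlapped in Mrps18a (log2 fold change -0.05 ± 0.15) and Mrps18b (0.12 ± 0.17), while in Mrps18c (0.25 ± 0.18) both MERVL shRNA libraries were higher, and the edgeR adjusted p-values were 0.913, 0.805 and 0.603.

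The gap within the random shRNA pair, taken as the log2 CPM of library 1 minus that of library 2, went both ways across members. Its median was 0.01, with 39 members above 0 and 38 below, and its range was -0.70 to 0.54. Cytosolic ribosomal protein genes had a median gap of -0.43, with 78 of 82 below 0, and nuclear respiratory chain genes a median of -0.31, with 75 of 91 below 0. The absolute gap had a median of 0.23 in members and 0.32 in all genes for the random shRNA pair, and 0.09 and 0.14 for the MERVL shRNA pair. Here too all genes were not matched to the members for level. In 40 members (51.9%) the random shRNA gap was larger than the difference between the groups, against 61.4% of all genes.

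The widest gap, -0.70 in Mrps24, exceeded in size every group difference except that of Mrpl30. Mrps24, counterpart of bacterial S3, was at 69.2 and 112.2 CPM in random shRNA libraries 1 and 2, with the MERVL shRNA libraries between them at 91.1 and 98.8 CPM. Mrpl14, counterpart of bacterial L14, was at 17.5 and 26.3 CPM against 29.3 and 28.4 CPM, and Mrpl24, counterpart of bacterial L24, at 103.9 and 150.9 CPM against 154.4 and 147.1 CPM. In these 3 genes random shRNA library 1 was the lowest of the 4. In the other direction, Mrpl17, counterpart of bacterial L17, was at 149.3 and 102.9 CPM against 107.6 and 119.7 CPM. Mrpl44, a protein with an RNase III-type fold, was at 46.1 and 32.0 CPM against 34.2 and 35.0 CPM, and Mrps6, counterpart of bacterial S6, at 28.1 and 19.9 CPM against 24.6 and 25.8 CPM. Here random shRNA library 1 was the highest of the 4.

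Over all members, random shRNA library 1 was the highest of the 4 in 22 (28.6%) and the lowest in 33 (42.9%), where over all tested genes it was the highest in 32.2% and the lowest in 34.5%. MERVL shRNA library 2 was the highest in 33 (42.9%) and the lowest in 4 (5.19%), where over all tested genes it was the highest in 22.0% and the lowest in 20.7%. Across the 77 genes the random shRNA gap had a Pearson r of 0.16 with the GC content of the principal transcript and of 0.21 with its log2 length, where all the genes come from the same 2 libraries, and the log2 fold change had an r of -0.11 and -0.03 with the same properties.

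**Figure D3:**
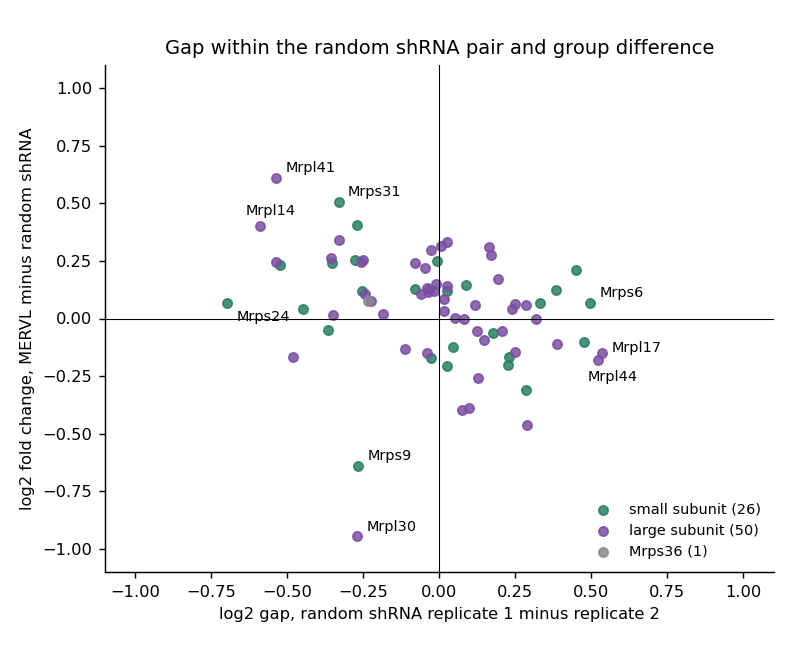
Log2 gap between the random shRNA libraries (x axis, replicate 1 minus replicate 2) against the log2 fold change, MERVL shRNA minus random shRNA (y axis), for the 77 members; each point is 1 gene, coloured by subunit. Gaps run from -0.70 to 0.54 on both sides of 0, and Mrpl30 and Mrps9 lie apart at log2 fold changes of -0.94 and -0.64.

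Per kb of transcript, members were expressed well above the typical gene and far below cytosolic ribosomal protein genes. Their median level was 40.0 CPM per kb, against 1407 for cytosolic ribosomal protein genes, 91.1 for nuclear respiratory chain genes and 7.48 for tested protein-coding genes. Although all their proteins except that of Mrps36 belong to 1 particle, the member levels spanned 24.2-fold from lowest to highest and 6.13-fold from the 10th to the 90th percentile. These spans depend on the transcript length used. Per kb of coding sequence, levels ran from 21.6 CPM in Mrpl53 to 297.4 CPM in Mrpl34. The highest levels were 140.0 CPM per kb for Mrpl52, 135.2 for Mrpl34, 129.7 for Mrpl42 and 109.2 for Mrpl20, all of the large subunit. The lowest were 5.77 for Mrpl19, 7.69 for Mrpl48, 7.84 for Mrps35 and 9.83 for Mrps25. Principal transcripts of these genes are 5000, 4285, 4162 and 6073 bp long, against a member median of 1316 bp. Exons of Mrps25 overlap Nr2c2 on the opposite strand by 4590 of 6576 bp, and those of Mrpl19 overlap Gcfc2 by 1962 of 5450 bp.

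By library, Mrpl52 was at 116.6 and 138.8 CPM per kb with random shRNA and at 151.3 and 153.1 with MERVL shRNA, and Mrpl34 at 157.7 and 149.8 against 113.5 and 119.9, so the order of the top members differed between the groups. Mrpl19 was at 5.79 and 5.06 CPM per kb with random shRNA and at 6.13 and 6.10 with MERVL shRNA, below the level of Mrpl48 (7.50 and 7.42 against 7.14 and 8.71) in every library. Mrpl48 and Mrps35 (8.22 and 8.38 against 6.87 and 7.89) overlapped. These ranks depend on the transcript length used: over coding length, Spearman's rho with the ranks per transcript was 0.46, 7 of the 10 highest members were shared, Mrps25 moved from rank 74 to rank 26, and Mrpl53 was lowest.

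**Figure D4:**
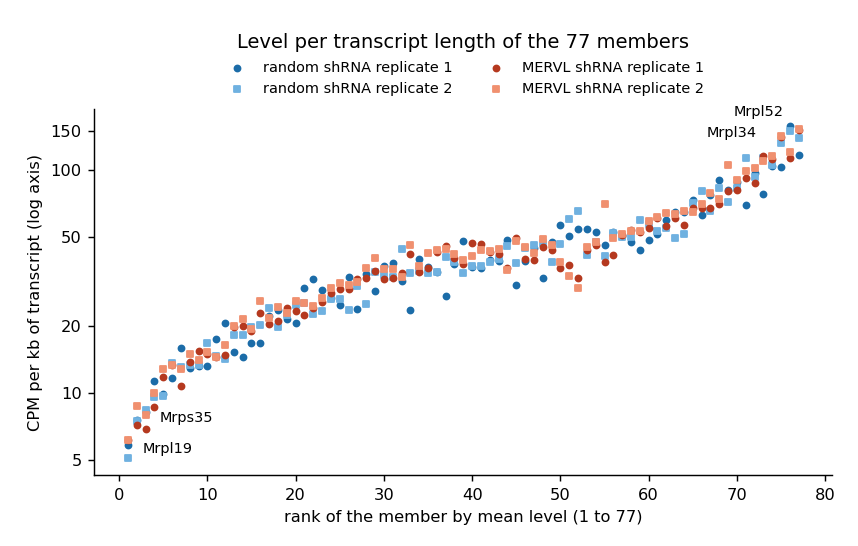
Level of the 77 members in CPM per kb of principal transcript (log axis), ranked by mean level along the x axis; each point is 1 library. The ranking runs from Mrpl19 at a mean of 5.77 to Mrpl52 at a mean of 140.0 CPM per kb, and the libraries of a gene lie close together compared with that span.

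A shared position on the genome was frequent among members. In GENCODE, 33 of 77 (42.9%) start within 1000 bp of the start of a protein-coding gene on the opposite strand, against 2091 of 13483 tested protein-coding genes (15.5%). They form 32 distinct pairs, since Mrps11 and Mrpl46 are each other's partner, and 14 of the pairs have overlapping starts while 18 have a gap between them. For 32 members the partner gene was tested, with a median log2 fold change of 0.05, 0 partners called by edgeR and 2 at an unadjusted p under 0.05 (background 11.2%). Both genes had the same sign in 15 of 31 distinct pairs tested.

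Mrpl30 and Mitd1, which encodes a protein of abscission, start 66 bp apart, and Mitd1 was at 19.6 and 26.2 CPM with random shRNA and at 25.3 and 24.8 CPM with MERVL shRNA (log2 fold change 0.13 ± 0.19, against -0.94 for Mrpl30). Mrpl43 and Twnk, the mitochondrial DNA helicase, overlap by 507 bp of exon on opposite strands, and Twnk was at 81.9 and 49.6 CPM with random shRNA and at 47.1 and 50.5 CPM with MERVL shRNA (-0.43 ± 0.24, against -0.46). Since no source used here states that counting used strand, reads from Mrpl43 and Twnk cannot be told apart there. Mrps12 and Sars2, the mitochondrial seryl-tRNA synthetase, had log2 fold changes of -0.13 and -0.12. Mrps11, a small subunit protein, was at 31.2 and 26.7 CPM with random shRNA and at 23.6 and 26.7 CPM with MERVL shRNA, while Mrpl46, which shares its start region, was at 44.2 and 45.3 CPM with random shRNA and at 47.6 and 50.1 CPM with MERVL shRNA. The pair thus had log2 fold changes of opposite sign, -0.20 ± 0.17 and 0.13 ± 0.13, neither of which passed the edgeR test. In GENCODE their exons overlap by 173 bp on opposite strands, so reads from Mrps11 and Mrpl46 cannot be told apart there either.

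Shared exon sequence bears on many of the counts. Exons of 28 members overlap a gene on the opposite strand, those of 7 overlap a gene on the same strand, and 45 overlap none. In 64 members at least 1 of the 4 estimated counts was not a whole number, which is how tables look when a read is divided among several places. In Mrpl53, 695 of 790 exonic bp are shared with Gm42688 on the same strand, so its counts are uncertain. Among the 45 members without overlap the median log2 fold change was 0.08 and 7 were at an unadjusted p under 0.05 (background 11.2%), with Mrpl30, Mrps9, Mrps31, Mrpl34 and Mrpl41 among them.

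The proteins of this ribosome that carry other symbols, and the factors it works with, were read beside the members, and edgeR called 0 genes in each of these lists. Dap3, Ptcd3, Aurkaip1, Chchd1 and Gadd45gip1, which encode further ribosomal proteins, had a median log2 fold change of 0.14, with 4 above 0 and none at an unadjusted p under 0.05. Their groups did not overlap in 40% of these genes (background 44.8%). Aurkaip1 was at 109.0 and 115.3 CPM with random shRNA and at 124.0 and 143.5 CPM with MERVL shRNA (0.25 ± 0.14, edgeR adjusted p 0.502). Dap3, a GTP-binding small subunit protein, was at 122.0 and 148.3 CPM with random shRNA and at 141.0 and 157.1 CPM with MERVL shRNA, with overlapping groups.

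Translation factors of mitochondria, 15 genes, had a median log2 fold change of 0.10, with 10 above 0, 5 below and none at an unadjusted p under 0.05. The groups overlapped in 11 of the 15 and did not in 26.7% (background 44.8%). Mtfmt, which formylates the initiator methionyl-tRNA, was at 17.3 and 16.3 CPM with random shRNA and at 12.7 and 12.5 CPM with MERVL shRNA (-0.41 ± 0.18, edgeR adjusted p 0.374). Mtrf1l, a release factor, was at 5.23 and 6.79 CPM with random shRNA and at 9.55 and 7.88 CPM with MERVL shRNA (0.54 ± 0.27, edgeR adjusted p 0.444). Both had groups that did not overlap, in opposite directions.

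Genes for assembly of the ribosome and modification of its RNA, 28 in all, had a median of 0.10, with 21 above 0, 7 below and none at an unadjusted p under 0.05. In 35.7% of them the groups did not overlap (background 44.8%). Mterf3, needed for large subunit assembly, was at 31.4 and 31.9 CPM with random shRNA and at 39.9 and 38.7 CPM with MERVL shRNA (0.31 ± 0.14, edgeR adjusted p 0.388).

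The 17 mitochondrial aminoacyl-tRNA synthetases, which charge the tRNAs this ribosome reads, had a median log2 fold change of 0.19, with 14 above 0 and 3 below. Both MERVL shRNA libraries were above both random shRNA libraries in 9 of them and below in 2 (backgrounds 23% and 21.9%), and 1 was at an unadjusted p under 0.05 (background 11.2%). That gene was Aars2, the alanyl-tRNA synthetase, at 68.3 and 67.0 CPM with random shRNA and at 89.4 and 88.0 CPM with MERVL shRNA, with the pairs apart and each pair close (0.39 ± 0.13, edgeR adjusted p 0.329). Cars2, the cysteinyl-tRNA synthetase, was at 24.2 and 25.5 CPM with random shRNA and at 30.4 and 32.4 CPM with MERVL shRNA (0.33 ± 0.15, edgeR adjusted p 0.388).

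No value was given for the RNA that these proteins bind: the 2 ribosomal RNA genes and 13 protein-coding genes of mitochondrial DNA were all listed at 0 in every library, so no comparison with the products of the mitochondrial genome could be made.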

How the data were processed

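RNA-seq libraries of 4 samples were grouped by their titles. Trim Galore, HISAT2 and build mm10 are named, per the submitters' processing notes. Their versions, the counting program and its strand setting were not given in the sources used here. The authors deposited estimated counts per feature, which need not be whole, and a second table of normalized scores, whose derivation no source used here describes. Estimated counts were rounded and tested in edgeR 4.0.16 (R 4.3.3; TMM, filterByExpr, quasi-likelihood F test, group as the only term, 2-sided, Benjamini-Hochberg over all 16353 features kept). CPM values use TMM-scaled library sizes, and log2 gaps a prior count of 1. The SE of a log2 fold change is not an edgeR output. It was derived as the absolute log2 fold change divided by the square root of the F statistic. Gene names matched 42329 of 43496 Ensembl identifiers in GENCODE annotation of GRCm38. Scripts were tested on simulated data.

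Members and lists were chosen with earlier results of these data known. Values per library are given for the 12 members with the smallest p, the 4 highest and 4 lowest per kb, the 3 widest random shRNA gaps in each direction, Mrpl12, Mrps12, Mrps18a, Mrps18b, Mrps18c and Mrpl36, and up to 4 genes of each other list. Mrps11, Mrpl46, Mrpl53, Mrpl54, Mitd1 and Twnk were singled out after their values were seen. Alternatives were other scalings and filters, DESeq2 1.42.0, limma-voom (limma 3.58.1), limma on log2(score + 1), a replicate block and leaving out each library.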

Additional observations from a re-analysis of the deposited data

How the results depend on the processing

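Member calls at an adjusted p under 0.05 were 0 in edgeR with TMM, RLE, upper-quartile or total scaling, with a filter of 1 CPM in 2 libraries, and with the 5 proteins of other symbols added. With all features kept edgeR called 3 members (Mrpl30, Mrpl41 and Mrps9) among 1293 features, DESeq2 called 1 (Mrpl30) among 219, and limma-voom called 0 among 0. The deposited scores called 22 members (14 higher, 8 lower) among 4919 features (27.6%); in the scores the median absolute gap of the random shRNA pair was 0.02 instead of 0.23, while that of the MERVL shRNA pair was 0.09 in both. With the replicate number as a block, 1 member (Mrpl30) was called among 738 features (4.51%); libraries of the same number share only that number in the labels, and their deviations correlated at r = 0.04. Leaving out each library in turn gave 0 to 26 member calls among 2 to 5542 features, a median log2 fold change of 0.038 to 0.150 and a log2 ratio of summed CPM of 0.0133 to 0.113. Scaling by library totals moved the median to 0.0114 and the log2 ratio of sums to -0.0160. Keeping only the 45 members with no exon overlap, an alternative chosen after seeing the data, moved the median random shRNA gap to -0.0475. Over the same leave-outs the log2 fold change ranged from -0.0101 to 0.493 in Chchd1, -0.323 to 0.0053 in Gadd45gip1, -0.0246 to 0.365 in Mrrf and -0.686 to 0.0330 in Elac2, each changing sign without random shRNA library 1; the cause was not tested. For 36 named genes, 397 of the other gene-level values kept their direction and side of the threshold and 67 passed it in the same direction. The 2 libraries in each group limit the precision of all values.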

Other observations

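Mrpl54, a large subunit protein without a bacterial counterpart, was the member whose MERVL shRNA libraries were farthest apart. It was at 27.8 and 24.8 CPM with random shRNA and at 23.2 and 42.3 CPM with MERVL shRNA, a 1.82-fold gap within the MERVL shRNA pair. The next widest were Mrpl12 at 1.31-fold and Mrpl48 at 1.22-fold, and in all 3 MERVL shRNA library 2 was the highest of the 4.

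The groups did not overlap in 31.6% of the 19 genes for mitochondrial transcription and RNA processing (background 44.8%). Their median log2 fold change was 0.03, with 13 above 0, 6 below, 0 called by edgeR and 1 at an unadjusted p under 0.05 (11.2% of all genes were). That gene was Pnpt1, the mitochondrial polynucleotide phosphorylase, at 65.0 and 78.7 CPM with random shRNA and at 104.8 and 94.1 CPM with MERVL shRNA (0.47 ± 0.16, edgeR adjusted p 0.329). Tfam, which packages and transcribes mitochondrial DNA, was at 123.8 and 121.3 CPM with random shRNA and at 101.9 and 105.5 CPM with MERVL shRNA (-0.24 ± 0.13, edgeR adjusted p 0.476). Of 10 regulators of mitochondrial biogenesis 9 were tested, with a median of 0.02, 5 above 0, 4 below, 0 called by edgeR and 0 at an unadjusted p under 0.05. Their groups did not overlap in 44.4% (background 44.8%). Gabpa, the ETS factor whose letters were counted in the promoters, was at 168.9 and 164.9 CPM with random shRNA and at 148.9 and 141.3 CPM with MERVL shRNA (-0.20 ± 0.13, edgeR adjusted p 0.572).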
